A study of Mus musculus with 156 samples.

Results

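The mitochondrially encoded genes are the genes of the mouse mitochondrial DNA, taken as every gene of the deposited tables whose name begins with mt-. There were 37 of them among 40914 genes: 13 protein genes, 2 ribosomal RNAs (rRNAs) and 22 transfer RNAs (tRNAs). All 37 matched a gene on the mitochondrial chromosome in the GENCODE M21 annotation of mm10. They were chosen by name and not by any measured value, and the protein genes are described apart from the other RNAs.

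RNA was sequenced from mouse embryonic stem cells of 4 lines. The WT control had the WT genotype and the KO control was a Firre KO, a knockout of the long noncoding RNA Firre. The WT transgene line carried a Firre inducible transgene, and the KO transgene line combined the Firre KO with that transgene. Cells were collected at 0, 720, 1440, 2880 and 5760 min in a long course (60 libraries, 3 replicates a group) and every 30 min up to 330 min in a short course (96 libraries, 2 a group). All groups grew on gelatin in serum with LIF, PD0325901 and CHIR99021, and all later than 0 min had received doxycycline, the controls included, 1 hour after a change of medium. In the control lines, effects of doxycycline, medium age and culture time therefore cannot be told apart. The number of clones behind a line and the nature of a replicate were not given in the sources used here, so p-values measure the spread between these samples, which may be technical.

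Mitochondrial DNA is a small circle that is copied and transcribed inside the organelle by nuclear-encoded enzymes. Both strands are transcribed into long precursors, and tRNAs that lie between the other genes are cut out to release mRNAs and rRNAs. The 13 proteins are core subunits of 4 respiratory chain complexes: complex I (the mt-Nd genes), complex III (mt-Cytb), complex IV (the mt-Co genes) and complex V, the ATP synthase (mt-Atp6 and mt-Atp8). All lie on 1 strand except mt-Nd6, which is read from the other. Embryonic stem cells are known to rely strongly on glycolysis while keeping an active respiratory chain. Doxycycline is a tetracycline, a class of antibiotics known to slow translation on mitochondrial ribosomes. Its part in any result here was not tested.

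Total counts per library were 18961799 to 47948630 in the long and 19013652 to 37195019 in the short course. Firre checked the labels: the KO control had at most 2.02 TPM (a level scaled by transcript length and library) and the WT control at least 19.2 TPM. After 0 min Firre was 24.8 to 50.8 TPM in the KO transgene line of the long course and 130 to 471 TPM in that of the short course. The WT transgene line already had 41.4 to 46.8 TPM at 0 min. The stem cell markers Pou5f1, Nanog, Sox2, Zfp42, Esrrb and Dppa5a summed to 6251 to 9547 TPM in each library. The fibroblast or feeder markers summed to 0.987 to 4.98 TPM, primitive endoderm markers to 1.53 to 4.37 TPM, trophoblast markers to 2.11 to 7.98 TPM and neuroectoderm markers to 1.08 to 3.51 TPM. In such bulk samples fewer mitochondria per cell, fewer cells of a kind and less RNA per mitochondrion cannot be told apart.

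The genes overlap and repeat elsewhere in the genome, and both facts bear on how their reads can be counted. The end of mt-Atp8 and the start of mt-Atp6 share 43 bases, and the last 14 bases of mt-Nd5 are also the last 14 of mt-Nd6 on the other strand. The libraries carry no strand, so reads of that stretch and of any antisense transcript cannot be told apart. The overlaps are shown on the plus strand, at chrM:7907-7989 and chrM:13532-13585 of mm10, with the shared bases in capitals:
mt-Atp8/mt-Atp6: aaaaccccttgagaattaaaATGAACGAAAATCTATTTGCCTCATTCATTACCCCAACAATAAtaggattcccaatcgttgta
mt-Nd5/mt-Nd6: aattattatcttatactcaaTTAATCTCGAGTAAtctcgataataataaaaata

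Chromosome 1 of mm10 holds nuclear copies of a run of mitochondrial genes, annotated as 7 genes between 24611535 and 24616197 on the minus strand. Aligned to the mitochondrial genes, Gm28661 matched mt-Co2 at 681 of 681 bases, Gm10925 matched mt-Atp6 at 678 of 678 and Gm28437 matched mt-Co3 at 783 of 783. Gm10222 matched mt-Nd4l at 294 of 294 bases and Gm28439 matched mt-Nd4 at 876 of 876, which is 63.6% of that gene. Gm29216 was the least alike, matching mt-Co1 at 486 of 492 bases over 31.8% of that gene. Gm28438 differed from mt-Nd3 at 1 of 345 bases, T3C, counted from 1 at the first base of mt-Nd3. The first 40 bases of both are shown with that base in capitals, mt-Nd3 at chrM:9459-9498 and Gm28438 at chr1:24613080-24613119 on the minus strand:
mt-Nd3: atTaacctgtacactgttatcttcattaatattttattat
Gm28438: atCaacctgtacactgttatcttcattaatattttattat

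The first 60 bases of mt-Co3 (chrM:8607-8666) and of Gm28437 (chr1:24613912-24613971, minus strand) show a pair with no difference, all in lower case:
mt-Co3: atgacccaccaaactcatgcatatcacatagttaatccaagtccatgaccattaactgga
Gm28437: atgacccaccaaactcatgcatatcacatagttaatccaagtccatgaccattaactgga

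These 7 copies are not among the genes analysed here. To see how much of each gene could be confused, the members were cut into all stretches of 31 bases (31-mers), and each was looked for in every other GENCODE M21 transcript on both strands. Of the 13 protein genes, 7 shared over 20% of their 31-mers with nuclear transcripts. The share was 100% for mt-Co2, 99.9% for mt-Co3, 99.5% for mt-Atp6, 98.9% for mt-Nd4l, 98.1% for mt-Nd3, 63.9% for mt-Co1 and 62.8% for mt-Nd4. The other 6 were between 0% for mt-Nd1 and 16.8% for mt-Nd5, with mt-Cytb at 6.55%, mt-Nd6 at 7.36%, mt-Atp8 at 7.47% and mt-Nd2 at 13.5%. The rRNA mt-Rnr1 shared 0% and mt-Rnr2 2.71%. Reads that fit several transcripts are divided between them, which leaves fractions. The deposited counts were whole numbers (within 1e-06) in every library for mt-Nd1, mt-Nd6 and mt-Rnr1, in 8 for mt-Co3, in 1 each for mt-Co2 and mt-Atp6, and in 0 for mt-Co1, mt-Nd3, mt-Nd4 and mt-Atp8, the last of which overlaps mt-Atp6. They were whole in 155 libraries for mt-Rnr2, 96 for mt-Nd5 and 75 for mt-Nd2. For mt-Nd4l and mt-Cytb, with shares of 98.9% and 6.55%, they were whole in 60 each. Fractions thus did not follow the share of 31-mers in every gene.

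Spread between libraries of a group differed by gene. As the pooled within-group SD of log2(TPM + 1), it was smallest for mt-Nd1 (0.036), mt-Cytb (0.039) and mt-Co1 (0.040) in the long course. The 3 largest values among the protein genes were those of mt-Nd3 (0.19), mt-Co3 (0.18) and mt-Co2 (0.15), and the same 3 led in the short course, with 0.29, 0.33 and 0.25. All 3 share over 98% of their 31-mers with nuclear transcripts, but mt-Atp6 and mt-Nd4l, which share as much, had 0.073 and 0.062 in the long course. Differences of mt-Co2, mt-Co3 and mt-Nd3 are given below as those of reads that these genes and their nuclear copies could share.

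**Figure D1:**
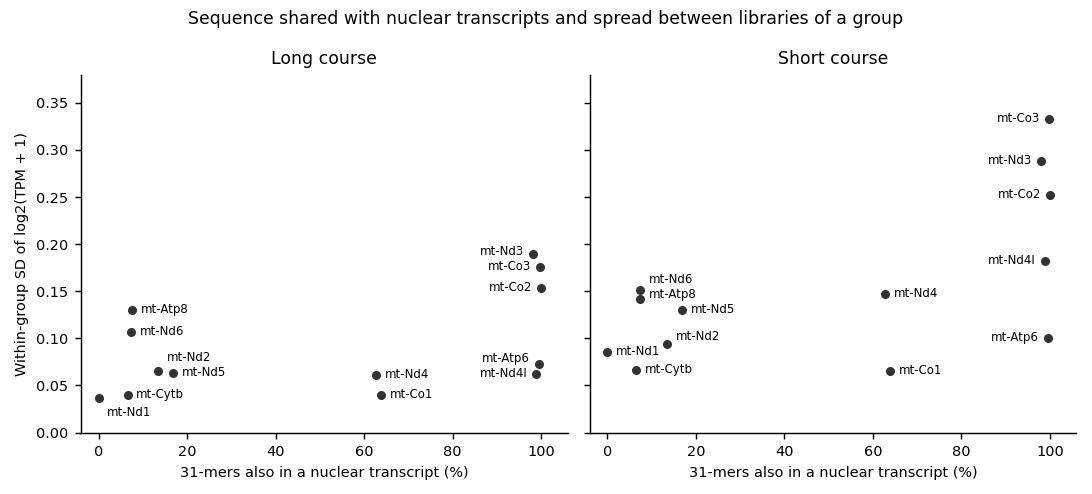
Share of each protein gene's 31-mers that also occur in a nuclear transcript (x, %) against its pooled within-group SD of log2(TPM + 1) (y), 13 genes, long course left and short course right. mt-Co3, mt-Nd3 and mt-Co2 lie at the upper right in both courses, and mt-Cytb and mt-Co1 lie low in both.

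Per length, the member with the highest TPM was mt-Atp8, with a median of 22344 TPM over the libraries of both courses. That gene is 204 bases long and overlaps mt-Atp6, and its median count was 25251 against 101553 for mt-Atp6. The part of length scaling and of divided reads in its rank was not tested. mt-Atp8 was followed by mt-Co1 (17692 TPM), mt-Atp6 (13176 TPM), mt-Co2 (11490 TPM), mt-Nd1 (9561 TPM) and mt-Co3 (7851 TPM). mt-Cytb (5961 TPM), mt-Nd4l (5154 TPM), mt-Nd4 (4544 TPM), mt-Nd2 (4217 TPM), mt-Nd6 (3051 TPM), mt-Nd5 (2095 TPM) and mt-Nd3 (1938 TPM) came next. Genes beside each other in the precursor thus differed several-fold in level. Neighbours in this order were not all separate: mt-Nd5 was below mt-Nd3, and mt-Nd1 below mt-Co3, in many single libraries, the former pair keeping its order in 94 libraries and the latter in 114. mt-Co1 was above mt-Atp6 in 155, and mt-Nd2 above mt-Nd6 in every library. mt-Co1, the catalytic subunit of complex IV and a long gene, took 32.8 to 45.4% of the counts of the 13 protein genes. The pair mt-Nd5 and mt-Nd6 kept the steadiest ratio of neighbours in the order, mt-Nd6 being higher by 0.57 ± 0.086 on the log2 TPM scale (SD over all libraries).

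The protein genes supplied at least 96.9% of all member counts in every library. Poly(A) selection was used, and mitochondrial rRNAs and tRNAs lack long poly(A) tails. mt-Rnr2, the 16S rRNA of the large mitochondrial ribosomal subunit, had a median of 547 TPM, and mt-Rnr1, the 12S rRNA, 218 TPM. Counts of the 22 tRNAs summed to 21 to 313 per library.

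Some members varied together between libraries of a group and others did not. Over the 78 pairs of protein genes, deviations from the group mean correlated with a median r of 0.44 in the long course (60 libraries), and 37 pairs were over 0.5 and 8 below 0. Over the 96 short-course libraries the median was 0.54, with 40 pairs over 0.5 and 26 below 0. mt-Nd5 and mt-Nd6 had r = 0.82 and 0.93 in the long and short course. mt-Atp6 and mt-Atp8, which overlap, had 0.01 and 0.16. mt-Co3 was below 0 with 8 of 12 other protein genes in the long and 11 of 12 in the short course. The rRNAs had 0.96 in the long course, where 1 library stands apart, and 0.27 in the short. These are descriptions over libraries that share depth and composition within each library.

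Mitochondrially encoded genes took 3.42 to 5.44% of counts in the long course and 3.36 to 4.30% in the short course. In the WT control the share was 3.55% ± 0.111 at the start (SD, n = 3). It was 3.90% ± 0.0988 by 720 min, 4.36% ± 0.128 by 1440 min, 5.16% ± 0.184 by 2880 min and 4.34% ± 0.112 by 5760 min. The KO control went from 3.84% ± 0.0897 to 5.15% ± 0.320 at 2880 min and 4.39% ± 0.125 at 5760 min. In both controls all 3 libraries at 2880 min lay above all 3 at 0 min and above all 3 at 5760 min. The transgene lines followed, with 5.01% ± 0.143 in the WT transgene line and 5.23% ± 0.107 in the KO transgene line at 2880 min.

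**Figure D2:**
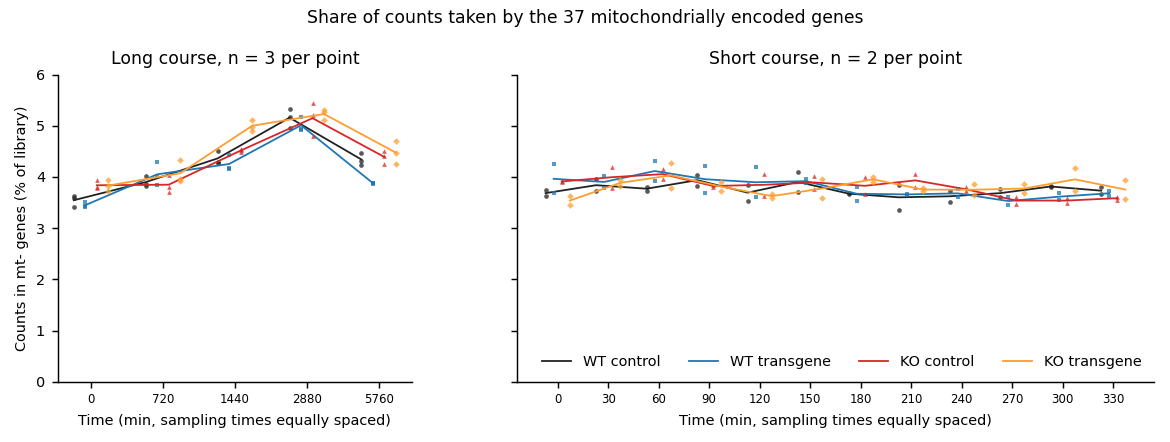
Counts in the 37 mitochondrially encoded genes as a percent of the library (y) by sampling time in min (x, times equally spaced), long course left (n = 3 a group) and short course right (n = 2). Points are libraries and lines join group means. Every line peaks at 2880 min in the long course, and values stay between 3.36 and 4.30% in the short course.

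The comparison over time in the control lines asks what moves without the transgene. In the WT control all 13 protein genes passed the test of change from 0 min (edgeR quasi-likelihood F test with 4 df, Benjamini-Hochberg adjusted p under 0.05), against 54.8% of all genes tested and 28.7% called higher. All 13 passed in the KO control as well, 12 of them higher, against 59.6% of all genes and 29.8% called higher. The change of largest size was upward for all 13 in the WT control and for 12 in the KO control, with medians of 0.74 and 0.70 on the log2 scale, where the medians over all genes were -0.07 and -0.06. These counts describe the genes and are no test of them as a list.

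mt-Co2 (chrM:7013-7696), the complex IV subunit that takes electrons from cytochrome c, had the largest change in both controls. Its TPM in the WT control was 7091, 6973 and 7288 at 0 min and 16762, 17438 and 17804 at 2880 min. All libraries of 2880 min were far above those of 0 min. Its log2 fold change at 2880 min was 1.52 ± 0.14 (SE, adjusted p of the F test = 4.17e-11) in the WT control and 0.95 ± 0.14 (9.35e-08) in the KO control.

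mt-Nd1 (chrM:2751-3707), a complex I subunit whose 31-mers occur in no other transcript, gives the change free of shared reads. In the WT control it was 7265, 7051 and 7273 TPM at 0 min and 9892, 10182 and 10222 TPM at 2880 min, without overlap. The fold change from scaled counts was 0.72 ± 0.05 (SE, log2, adjusted p of the F test = 1.14e-15), and in the KO control 0.64 ± 0.05 (2.93e-15). TPM is scaled otherwise, and in the WT control the TPM of mt-Nd1 and mt-Co2 rose by less than their fold changes. mt-Cytb, the complex III subunit, rose by 0.71 ± 0.05 in the WT control (6.46e-15), mt-Atp6 by 0.83 ± 0.06 (8.83e-14) and mt-Nd5 by 0.74 ± 0.06 (1.10e-13). Its KO counterpart saw mt-Nd5 rise by 0.86 ± 0.06 (1.20e-17), mt-Nd2 by 0.83 ± 0.07 (1.34e-14) and mt-Nd6 by 0.77 ± 0.07 (2.23e-15). mt-Nd6, annotated on the other strand, rose by 0.68 ± 0.07 in the WT control (1.06e-11). Without strand, its reads cannot be told from those of an antisense transcript.

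mt-Co1 (chrM:5328-6872) was the exception. In the KO control it was 21470, 21671 and 21194 TPM at 0 min and 16316, 16912 and 18023 TPM at 720 min, a fall of all libraries below all at 0 min. Its log2 fold change there was -0.33 ± 0.05 (adjusted p of the F test = 9.69e-10), the largest change down in either control. In the WT control it fell by 0.22 at 720 min and was higher by 0.23 ± 0.05 at 2880 min (F test adjusted p = 1.62e-09).

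Taken by time, the rise was not simultaneous. At 720 min 8 of 13 protein genes had passed in the WT control, 7 higher and mt-Co1 lower, with 4.83% of all genes called and 2.61% called higher. These were mt-Co2 (0.89), mt-Co3 (0.60), mt-Nd3 (0.56), mt-Atp6 (0.51), mt-Nd2 (0.38), mt-Cytb (0.21) and mt-Nd4l (0.21). By 720 min in the KO control 4 of 13 were higher and mt-Co1 lower, with 8.84% of all genes called and 4.46% called higher. mt-Nd5 was at 0.15 in the WT and -0.00 in the KO control and mt-Nd6 at 0.10 and -0.09, none of them called.

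From 720 to 1440 min mt-Nd5 and mt-Nd6 rose in all lines. mt-Nd5 rose by 0.64 and mt-Nd6 by 0.63 in the KO control. The KO transgene line had 0.61 and 0.63, the WT control 0.37 and 0.38, and the WT transgene line 0.22 and 0.21. Over this step 10 of 13 protein genes were called higher in the KO control (19.5% of all genes called higher) and 8 in the WT control (15.5%). The KO transgene line had 9 (20.1%) and the WT transgene line 6 (20.4%), and none was lower in any line.

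At 2880 min all 13 protein genes were called higher than at 0 min in the WT control (20.8% of all genes called higher), the WT transgene line (22.5%) and the KO control (24.7%), and 12 of 13 in the KO transgene line (23.5%), where mt-Co1 was at 0.11. From 2880 to 5760 min the direction turned, most in mt-Co2 and mt-Co3. mt-Co3 (chrM:8607-9390), a core subunit of complex IV, went from 11968, 13306 and 13149 TPM to 6909, 4307 and 5739 TPM in the WT control. Its log2 step was -1.28 and -1.10 in the WT control and transgene lines and -0.67 and -0.78 in the KO control and transgene lines. mt-Co2 stepped by -0.89, -0.90, -0.85 and -0.64 in that order. All these steps were called. The steps of mt-Co1, the other complex IV gene, were smaller, -0.16 and -0.34 in the WT control and transgene lines and -0.19 and -0.20 in the KO control and transgene lines, also called. In all, 9 of 13 protein genes were lower in the WT control (10.4% of all genes called lower) and 9 in the KO control (10.8%). The WT transgene line had 11 (16.5%) and the KO transgene line 8 (9.56%), and none was higher in any line. mt-Atp8 and mt-Nd3 were called in no line over this step.

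By complex, the summed TPM of the 3 complex IV genes in the WT control was 33757 ± 1524 at 0 min, 50450 ± 1650 at 2880 min and 34817 ± 2692 at 5760 min (SD, n = 3). The 7 complex I genes went from 24517 ± 499 to 34027 ± 998 and 33133 ± 828, and the 2 complex V genes from 25569 ± 1092 to 42112 ± 2175 and 39856 ± 1885. mt-Cytb alone went from 4545 ± 73.8 to 6411 ± 205 and 6566 ± 119. The complex IV sum at 5760 min was thus within the spread of 0 min, while the sums of the other complexes were above theirs. Its genes differed: at 5760 min mt-Co2 was still higher than at 0 min (0.63 ± 0.14, adjusted p = 0.000466), while mt-Co1 (0.08 ± 0.05, 0.264) and mt-Co3 (-0.12 ± 0.13, 0.552) were not called.

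**Figure D3:**
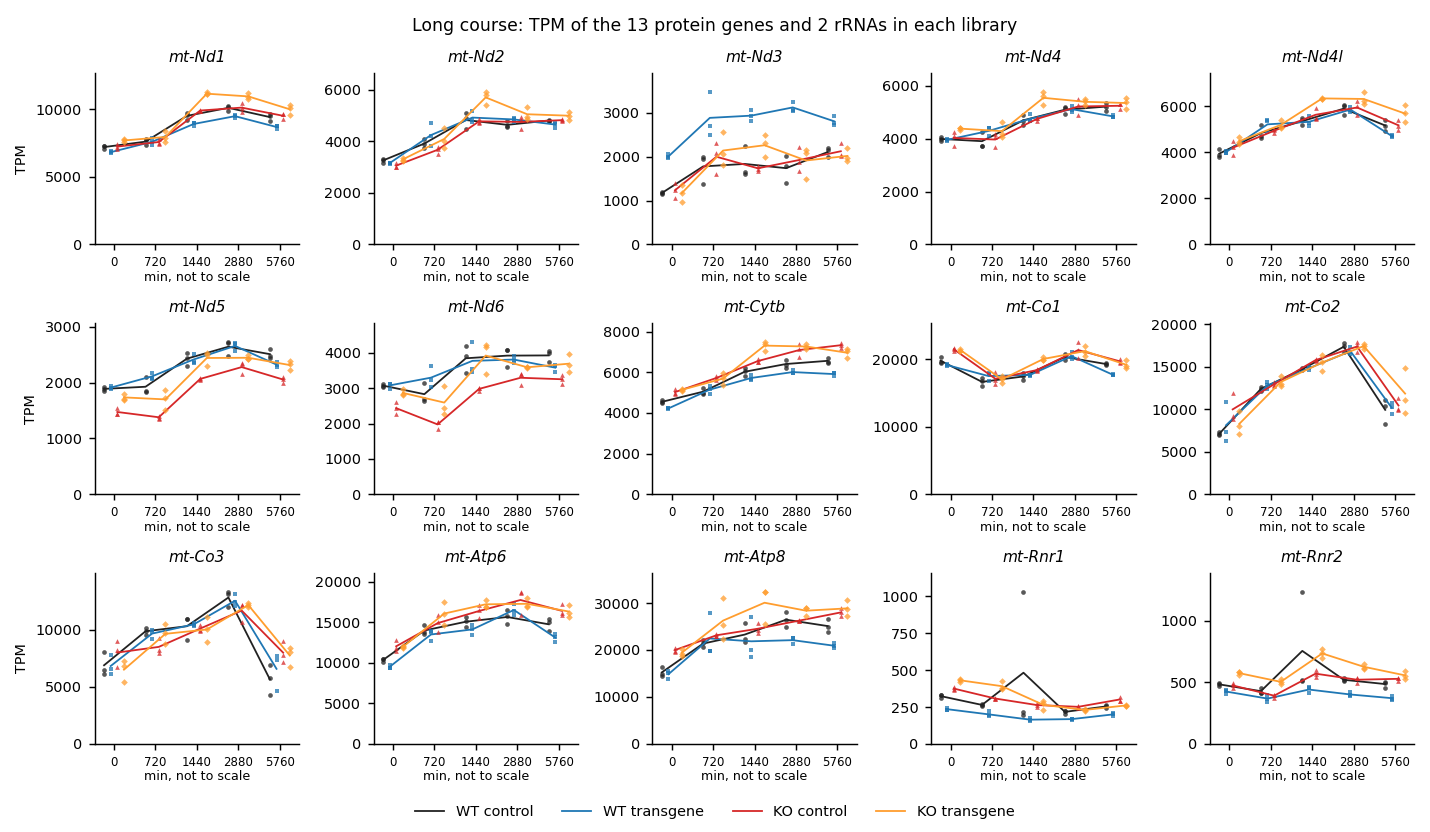
TPM (y) of each protein gene and both rRNAs in the long course by sampling time in min (x, not to scale). Points are libraries (n = 3 a group), lines join group means, and each panel starts at 0. mt-Co2 and mt-Co3 fall after 2880 min in all lines, the KO control lies lowest for mt-Nd5 and mt-Nd6, the WT transgene line lies highest for mt-Nd3, and 1 WT control library at 1440 min stands far above the others for both rRNAs.

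Whether the controls changed differently was tested as the change in the KO control minus that in the WT control, with 4 df. 1 of 13 protein genes passed, against 18.8% of all genes: mt-Co3, whose rise by 720 min was smaller in the KO control by 0.45 ± 0.18 on the log2 scale (SE; adjusted p = 0.0224). The call was lost when any 1 of the replicate numbers was left out.

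The comparison of KO control with WT control at 0 min asks what the absence of Firre goes with before doxycycline. 6 of 13 protein genes passed in the long course, 4 higher and 2 lower, against 35.1% of all genes tested (16.5% higher and 18.6% lower). The lower ones were mt-Nd5 and mt-Nd6, complex I subunits that lie end to end on opposite strands (mt-Nd5 chrM:11742-13565 plus, mt-Nd6 chrM:13552-14070 minus). mt-Nd5 was 1854, 1888 and 1921 TPM in the WT control and 1431, 1554 and 1436 TPM in the KO control. mt-Nd6 was 3042, 3055 and 3135 TPM against 2444, 2608 and 2260 TPM. In neither did the groups overlap. Without strand, mt-Nd6 reads cannot be told from antisense reads, so the 2 genes may not be separate observations. The log2 difference was -0.37 ± 0.06 for mt-Nd5 (SE; adjusted p = 2.44e-06) and -0.37 ± 0.07 for mt-Nd6 (1.85e-05).

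Higher in the KO control at 0 min were mt-Co2 (0.53 ± 0.14, adjusted p = 0.00202), mt-Atp6 (0.25 ± 0.06, 0.000707), mt-Atp8 (0.33 ± 0.12, 0.0211) and mt-Cytb (0.16 ± 0.05, 0.0205). mt-Atp8 ranged from 14407 to 16289 TPM in the WT and from 19629 to 20509 TPM in the KO control. For mt-Co2 the KO control libraries were 9158, 11896 and 8863 TPM, all above the WT control's 6973 to 7288 TPM.

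The pair mt-Nd5 and mt-Nd6 kept its difference over the long course. Both were lower in all KO control libraries than in all WT control libraries at 5 of 5 times. Over all times mt-Nd5 was lower by 0.35 ± 0.03 (log2, SE; adjusted p = 8.05e-15) and mt-Nd6 by 0.37 ± 0.03 (2.41e-14). The widest gap was at 720 min, -0.52 and -0.56, and the narrowest for mt-Nd6 was at 2880 min, -0.27. In the mean over all times 5 of 13 protein genes passed, 2 higher and 3 lower, against 52.2% of all genes (23.6% higher and 28.6% lower), the others being mt-Atp6 (0.13 ± 0.03, 0.00011), mt-Cytb (0.12 ± 0.02, 6.23e-05) and mt-Nd2 (-0.08 ± 0.03, 0.0232). The call of mt-Nd2 was lost without WT control replicate 3 at 1440 min (-0.05, 0.118). mt-Co2 and mt-Atp8 were not among them.

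In the short course the same lines did not show the gap in mt-Nd6, and in mt-Nd5 only in part. At 0 min mt-Nd5 was 1971 and 2161 TPM in the KO control and 1986 and 2072 TPM in the WT control. Both KO control libraries were below both WT control libraries at 4 of 12 times and above at 0. Median mt-Nd5 was 2102 and 1783 TPM in KO control replicates 1 and 2, and 2110 and 2066 TPM in those of the WT control. mt-Nd5 was not among the protein genes called over all times. Over the 12 short-course times mt-Nd6 differed by -0.04 ± 0.03 (adjusted p = 0.317), and KO libraries ranged from 2438 to 3843 TPM around the WT control's 2616 to 3201 TPM. At 0 min 1 of 13 protein genes passed (7.51% of all genes), mt-Atp8 with 0.43 ± 0.12 (0.0166). Over all short-course times 4 of 13 passed (45.7% of all genes): mt-Atp8 (0.23 ± 0.03, 3.37e-07), mt-Nd3 (0.45 ± 0.08, 1.39e-05), mt-Nd1 (-0.10 ± 0.03, 0.00158) and mt-Co1 (0.06 ± 0.02, 0.0253). Median mt-Atp8 was 24066 and 21390 TPM in KO control replicates 1 and 2, and 21395 and 21267 TPM in those of the WT control. For mt-Nd3 these medians were 1676 and 1992 TPM against 1242 and 1380 TPM. The comparison was not refitted without a replicate number, so the part of this split in the calls was not tested. No test compared the courses, whose cultures and depths differ.

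**Figure D4:**
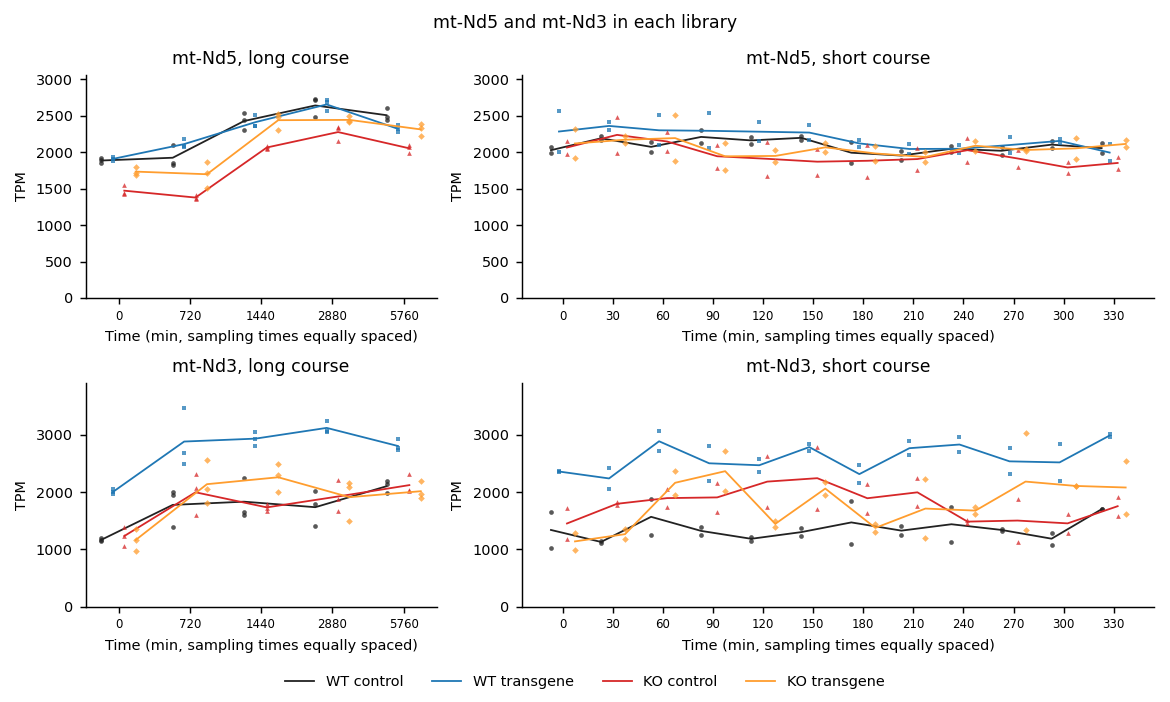
TPM (y) of mt-Nd5 (top) and mt-Nd3 (bottom) by sampling time in min (x, times equally spaced), long course left (n = 3 a group) and short course right (n = 2). Points are libraries and lines join group means. mt-Nd5 is lowest in the KO control at each long-course time but not at each short-course time, and mt-Nd3 is highest in the WT transgene line in both.

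Each transgene line was compared with its control at 0 min, before induction, and averaged over all times. All times but 0 min follow induction, so the averages do not separate the line from induction. In the KO background mt-Nd5 and mt-Nd6 were higher in the KO transgene line at 0 min, each by 0.24 (SE 0.06 and 0.07; adjusted p = 0.0119 and 0.0318), and they were the 2 of 13 protein genes that passed, against 3.54% of all genes. With only the KO lines fitted mt-Nd6 had an adjusted p of 0.0629, and without any 1 replicate number 0 or 1 of the pair passed. mt-Nd5 was 1693, 1798 and 1714 TPM there, between the KO control and the WT control. Firre was 0.588 to 1.07 TPM in these KO transgene libraries. In all 3 libraries of the KO transgene line mt-Nd5 and mt-Nd6 were above the KO control at 5 of 5 times. Averaged over the 5 times, which was examined after the values were seen, 6 of 13 passed, all higher (32.3% of all genes, 15.6% higher): mt-Nd5 (0.20 ± 0.03, 6.65e-08), mt-Nd6 (0.21 ± 0.03, 1.47e-07), mt-Nd1 (0.12 ± 0.02, 7.33e-05), mt-Nd4l (0.12 ± 0.03, 0.000333), mt-Nd2 and mt-Nd4. In the short course 0 of 13 passed at 0 min (2 at an unadjusted p under 0.05; 0.161% of all genes called) and 0 of 13 over all times (2 at an unadjusted p under 0.05; 12.5% of all genes called).

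In the WT background mt-Nd3 (chrM:9459-9806), a small complex I subunit, was the protein gene called. At 0 min it was 1966, 2051 and 1996 TPM in the WT transgene line, against 1164, 1153 and 1193 TPM in the WT control. That difference of 0.79 ± 0.16 (log2, SE; adjusted p = 0.000485) was the 1 call among 13 protein genes, against 13.2% of all genes. Averaged over the 5 times it was 0.66 ± 0.07 (3.98e-10), with all libraries above the control at 5 of 5 times. By time it was 0.74, 0.64, 0.81 and 0.33 at 720, 1440, 2880 and 5760 min, the last not called (adjusted p = 0.158).

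The short course gave the same direction from other libraries. mt-Nd3 ranged from 2057 to 3065 TPM in the 24 libraries of the WT transgene line and from 1029 to 1888 TPM in the 24 of the WT control, with no overlap. The log2 difference over all times was 0.97 ± 0.08 (SE; adjusted p = 5.50e-14). mt-Nd2 (0.10 ± 0.03, 0.00419) and mt-Nd6 (0.08 ± 0.03, 0.0418) were the others of 3 that passed, against 42.7% of all genes. At 0 min of the short course 0 of 13 passed (3 at an unadjusted p under 0.05; 2.93% of all genes), with mt-Nd3 at 0.90. The KO transgene line did not share the feature: its mt-Nd3 ranged from 995 to 3036 TPM around the KO control's 1126 to 2789 TPM. Since nearly all letters of mt-Nd3 recur in Gm28438, the share of mitochondrial and nuclear reads in this difference was not tested.

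Other calls in the WT background over the 5 long-course times were small: mt-Nd1 (-0.10 ± 0.02, adjusted p = 0.000378), mt-Cytb (-0.10 ± 0.02, 0.000743) and mt-Atp6 (-0.09 ± 0.03, 0.00555), with mt-Nd3 the 4 of 13 that passed (36.1% of all genes). Both rRNAs were also lower in the WT transgene line, with values given with the other rRNA results.

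The response to Firre is the change from 0 min in a transgene line minus that in its control. For the KO lines (rescue) 0 of 13 protein genes passed in the long course by edgeR, against 11.5% of all genes, and 1 had an unadjusted p under 0.05. The log2 responses at the time of largest size ranged from -0.17 to 0.50, with a median of 0.15 where all genes had -0.05. Their standard errors were 0.068 to 0.23, so 95% intervals reached from -0.34 to 0.94 over the members. Without a filter on low counts 11 of 13 passed (7.03% of all genes tested), although no fold change moved by over 0.0054. mt-Nd6 responded by -0.15 ± 0.09 (adjusted p = 0.472) and mt-Rnr2 by -0.17 ± 0.20 (0.929).

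In the WT background (overexpression) 2 of 13 passed the 4-df test in the long course, against 9.79% of all genes, with their largest values, both negative, at 5760 min. mt-Co1 responded by -0.17 ± 0.07 (log2, SE; adjusted p = 0.0221) and mt-Nd4l by -0.25 ± 0.08 (0.0212). Tested at 5760 min alone, mt-Nd4l was called (0.0465) and mt-Co1 was not (0.109). Both calls were lost without replicate 2 or without replicate 3, and with no filter on low counts 13 of 13 passed. mt-Co1 was 17731, 17623 and 17641 TPM in the WT transgene line and 19088, 19240 and 19428 TPM in the WT control at 5760 min, without overlap. mt-Nd4l was 4762, 4648 and 4686 TPM against 4920, 5152 and 5393 TPM. At that time 8 of 13 protein genes were called lower in the WT transgene line than in the WT control, when levels are compared without regard to 0 min (9.13% of all genes called lower).

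In the short course the rescue response passed for 0 of 13 (1 at an unadjusted p under 0.05; 1.82% of all genes) and the overexpression response for 0 of 13 (5; 0.70% of all genes). The 13 rescue values were all positive, 0.01 to 0.45 as the mean over the 11 later times, and 10 of the 13 overexpression values were negative, -0.16 to 0.11 in all. Rescue minus overexpression passed for 0 of 13 in the long course (4 at an unadjusted p under 0.05; 5.32% of all genes) and for 0 of 13 in the short course (9; 0.0167% of all genes), where all 13 differences were positive, 0.11 to 0.33. All 13 values of a response come from the same libraries, 2 of them per line at 0 min.

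Over the first 330 min 4 protein genes passed in the WT control and 2 in the KO control. In the WT control 4 of 13 protein genes passed the spline test (3 df), all higher on average than at 0 min, against 21.8% of all genes: mt-Atp6 (0.16 ± 0.06, adjusted p = 0.0164), mt-Cytb (0.16 ± 0.04, 0.0169), mt-Atp8 (0.23 ± 0.07, 0.0178) and mt-Nd2 (0.20 ± 0.06, 0.025). None of these 4 passed with 1 coefficient per time in place of the spline, or without the libraries numbered 1. With no filter on low counts 12 of 13 passed in the WT control and 8 in the KO control. Among KO control libraries mt-Co1 (-0.18 ± 0.04, 1.70e-07) and mt-Nd6 (-0.18 ± 0.06, 0.0456) passed, both lower, against 13.3% of all genes. mt-Nd6 had an adjusted p of 0.0537 without KO control replicate 2 at 180 min and 0.0767 with the KO control fitted alone. mt-Co1 was 19182 and 19341 TPM in the KO control at 0 min and 15218 to 17687 TPM in the 12 libraries from 180 to 330 min. It fell in the same direction as at 720 min of the long course.

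The 16S rRNA mt-Rnr2 had a step in the WT lines of the short course. In the WT control it was 616 to 739 TPM in the 12 libraries from 0 to 150 min and 498 to 575 TPM in the 12 from 180 to 330 min. In the WT transgene line it was 598 to 749 TPM and then 457 to 515 TPM. Early and late libraries did not overlap in either line. The cut between 150 and 180 min was not among the planned comparisons, so the lack of overlap is a description. The spline test is of a smooth change and not of a step. It gave -0.25 ± 0.11 for the WT control (log2, SE; adjusted p = 0.0101), and the overexpression response was -0.12 ± 0.15 (0.943).

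The KO lines showed no such step but 2 levels at every time. In the KO transgene line the library numbered 1 was above that numbered 2 at 12 of 12 times, with 651 to 789 TPM against 481 to 641 TPM. In the KO control it was above at 11 of 12 times, with medians of 637 and 479 TPM. The exception was 180 min, where replicate 2 had 825 TPM of mt-Rnr2 and 603 TPM of mt-Rnr1, against 201 to 274 TPM of mt-Rnr1 in the other KO control libraries of the course. Some protein genes moved with these levels: mt-Nd5 and mt-Nd4l were higher in the library numbered 1 at 12 of 12 times in both KO lines, by means of 0.22 and 0.32 on the log2 scale in the KO control. Others did not: mt-Nd3 was higher in number 1 at 2 of 12 times in the KO control and 4 in the KO transgene line. mt-Co3 was higher in number 1 at 3 and 6 of 12 times in these lines. In the WT lines mt-Nd5 was higher in the library numbered 1 at 7 and 2 of 12 times. What the numbers stand for is not given in the labels, and the part of this split in the short-course results was not tested.

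**Figure D5:**
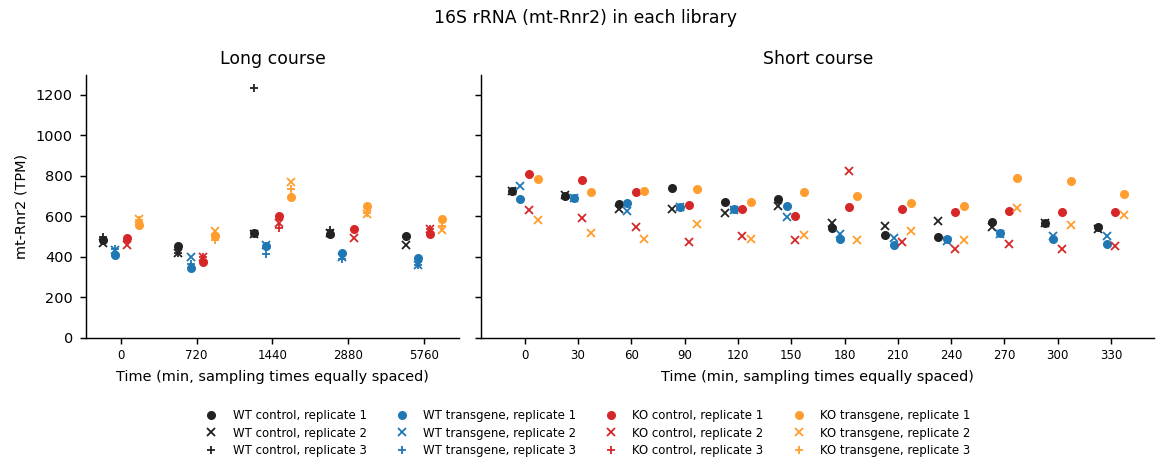
TPM of mt-Rnr2 (y) in each library by sampling time in min (x, times equally spaced), with the symbol giving the replicate number, long course left and short course right. The WT lines drop between 150 and 180 min, KO libraries numbered 1 lie above those numbered 2, and 1 WT control library at 1440 min reaches 1233 TPM.

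In the long course 1 library stood apart in both rRNAs. WT control replicate 3 at 1440 min had 1031 TPM of mt-Rnr1 against 199 and 218 TPM in the other 2, and 1233 TPM of mt-Rnr2 against 519 and 510 TPM. All rRNA results of the WT control at that time include that library. At 1440 min mt-Rnr1 changed by 0.70 ± 0.25 (adjusted p of the F test = 0.00443) and mt-Rnr2 by 0.83 ± 0.14 (3.78e-06). Tested at 1440 min alone, the adjusted p was 0.0259 for mt-Rnr1 and 6.01e-06 for mt-Rnr2. Without that library the change at 1440 min was -0.43 for mt-Rnr1, a change of sign (adjusted p of the F test = 3.34e-07), and 0.34 for mt-Rnr2 (1.87e-09). With it kept but the WT control fitted alone, the adjusted p was 0.376 and 0.0712.

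Both rRNAs were lower in the WT transgene line than in the WT control over the long course, by 0.65 ± 0.12 for mt-Rnr1 (adjusted p = 1.98e-05) and 0.41 ± 0.06 for mt-Rnr2 (1.07e-06). Without the library that stands apart the differences were -0.41 (1.57e-18) and -0.30 (5.98e-14). At 0 min mt-Rnr1 was 230, 233 and 244 TPM against 330, 310 and 333 TPM, and all libraries of the WT transgene line were below the control at 5 of 5 times for both rRNAs. In the KO background mt-Rnr2 was higher in the transgene line by 0.23 ± 0.06 (0.00375), with 697, 770 and 734 TPM at 1440 min against 600, 566 and 544 TPM. KO control and WT control differed by -0.10 ± 0.06 in mt-Rnr2 over the long course (adjusted p = 0.163).

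The 22 tRNAs were near the floor of detection. 5 of 22 passed the filter on low counts in the long course (mt-Ts1, mt-Te, mt-Tl1, mt-Th and mt-Tn) and 6 of 22 in the short course (mt-Ts1, mt-Te, mt-Tl1, mt-Th, mt-Tg and mt-Tl2). The 3 with the highest median counts, 30 for mt-Ts1 and 7 each for mt-Te and mt-Tl1 (0 to 3 for the other 19), are printed in lower case on their own strand (chrM:6870-6938 minus, chrM:14071-14139 minus and chrM:2676-2750 plus), as all 3 lie against a coding or rRNA gene:
mt-Ts1: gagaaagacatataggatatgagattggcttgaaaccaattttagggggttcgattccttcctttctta
mt-Te: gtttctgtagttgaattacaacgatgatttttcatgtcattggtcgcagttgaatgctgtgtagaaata
mt-Tl1: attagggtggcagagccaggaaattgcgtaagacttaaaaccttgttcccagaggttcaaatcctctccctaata

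The last 3 bases of mt-Ts1, a serine tRNA, lie opposite the last 3 of mt-Co1. mt-Te, the glutamate tRNA, lies directly beside mt-Nd6 on the same strand, and mt-Tl1, a leucine tRNA, lies between mt-Rnr2 and mt-Nd1. Without strand, reads of read-through precursors over these stretches cannot be told from tRNA reads.

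Among the 4 lines at 0 min of the long course, the summed tRNA counts, not scaled to depth, were highest in the WT control. mt-Ts1 had 93, 117 and 91 counts there, against 41, 38 and 24 in the KO control, a difference of -1.70 ± 0.46 (log2, SE; adjusted p = 0.00276). mt-Te had 34, 37 and 19 counts against 8, 9 and 9 (-1.93 ± 0.48, 0.000777). The tRNA counts of a WT control library summed to 179 to 239 at 0 min and 31 to 83 at 720 min. In the change from 0 min of the WT control 4 of 5 tRNAs passed the 4-df test (54.8% of all genes), lowest at 720 min: mt-Te (-3.07 ± 0.58, 0.000149), mt-Ts1 (-1.60 ± 0.47, 0.0302), mt-Tl1 (-1.49 ± 0.67, 0.037) and mt-Th (-2.90 ± 0.94, 0.0451). With the WT control fitted alone mt-Ts1 had an adjusted p of 0.0914, and without the library that stands apart in rRNAs mt-Th had 0.0601. The KO control had 1 of 5 that passed (59.6% of all genes), mt-Tl1 (-2.29 ± 0.87 at 720 min, 0.0368). Tested at 720 min alone, mt-Te (0.000483) and mt-Ts1 (0.0379) were called in the WT control, and mt-Th (0.0581), mt-Tl1 (0.222) and mt-Tl1 of the KO control (0.0872) were not.

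At later long-course times neither mt-Ts1 nor mt-Te was called between the controls. KO control minus WT control was then -0.50 to 0.09 for mt-Ts1 and -1.39 to 0.72 for mt-Te. In the short course, averaged over its times, the order of the controls was the other way round from 0 min of the long course. Over all times 4 of 6 tRNAs were higher in the KO control than in the WT control: mt-Te (1.09 ± 0.30, adjusted p = 0.002), mt-Tg (1.10 ± 0.31, 0.00264), mt-Ts1 (1.04 ± 0.29, 0.00307) and mt-Tl1 (0.87 ± 0.26, 0.00445). Against these, 45.7% of all genes were called in this comparison. Summed tRNA counts were 33 to 279 in the 24 KO control libraries (median 78.5) and 21 to 80 in the 24 of the WT control (median 41.5). The highest were replicate 2 at 60 min (261) and at 90 min (279). Without them the KO control ranged to 153, with a median of 77. The KO transgene line, not part of that test, had 29 to 313 counts (median 100).

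The nuclear genes that serve these RNAs are described by list. In the change from 0 min, 54.8% of all genes were called in the WT control (28.7% higher) and 59.6% in the KO control (29.8% higher), and the counts of each list stand beside these. Of 17 genes of mitochondrial DNA transcription and copying, 10 were lower and 1 higher in the change from 0 min of the WT control, with a median of -0.16 (-0.07 over all genes), and 10 lower and 2 higher in the KO control. By smallest adjusted p in the WT control these were Primpol, a primase-polymerase (-0.39 ± 0.08, 1.25e-07), Polg2, the accessory subunit of the mitochondrial DNA polymerase (-0.36 ± 0.08, 1.57e-05), Top1mt, the mitochondrial topoisomerase (-0.59 ± 0.13, 7.83e-05), and Mgme1, a mitochondrial exonuclease (-0.16 ± 0.04, 0.00027). In the KO control Tefm, the transcription elongation factor of mitochondria, led with -0.53 ± 0.05 at 5760 min (2.59e-19).

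Of 20 genes of mitochondrial RNA processing and stability, 6 were higher and 7 lower in the WT control and 5 and 9 in the KO control. Grsf1, a protein of the mitochondrial RNA granules, rose by 0.44 ± 0.03 in the WT control (adjusted p = 3.44e-25) and by 0.54 ± 0.03 in the KO control (4.19e-31), both at 1440 min. Lrpprc, which stabilises mitochondrial mRNAs, rose by 0.19 ± 0.03 in the WT control (2.98e-06), while Supv3l1, the helicase of the mitochondrial RNA degradosome, fell by 0.25 ± 0.03 (1.03e-07). Elac2, which cuts the 3′ ends of tRNAs, fell by 0.43 ± 0.04 in the KO control (6.49e-22).

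Of 24 nuclear partners in the respiratory chain 18 were higher and 3 lower in the WT control, with a median of 0.18 where the mitochondrial protein genes had 0.74. Of the same genes in the KO control 12 were higher and 8 lower, with a median of 0.09, and no test compared the controls by list. Cox6c, a small complex IV subunit, rose by 0.43 ± 0.03 (adjusted p = 1.82e-19) and Uqcrc1, a core subunit of complex III, by 0.35 ± 0.03 (3.19e-18) in the WT control, both at 2880 min. Of 6 tested regulators of mitochondrial biogenesis 3 were higher and 0 lower in the WT control: Pprc1 (0.21 ± 0.03, 2.97e-07), Myc (0.44 ± 0.08, 5.06e-07) and Ppargc1b (0.51 ± 0.12, 3.16e-05).

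Between KO control and WT control over the long course the lists split both ways. Supv3l1 was higher in the KO control by 0.53 ± 0.01 (adjusted p = 8.69e-45), Tefm by 0.53 ± 0.03 (7.43e-31) and Elac2 by 0.31 ± 0.02 (3.14e-28), while Grsf1 was lower by 0.21 ± 0.01 (1.16e-21). 7 of 20 RNA processing genes were higher and 7 lower, 5 of 17 transcription and copying genes higher and 2 lower, and 3 of 24 respiratory chain partners higher and 9 lower, where 23.6% of all genes were higher and 28.6% lower. The long-course rescue response, with 11.5% of all genes called, had 3 of 20 RNA processing genes higher and 2 lower, while 0 of 17 transcription and copying genes and 0 of 24 respiratory chain partners passed. No gene of the 4 lists passed in the short-course rescue response.

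The nuclear genes most like the members over the 60 long-course libraries, by Pearson r of log2 CPM (counts scaled to library size) with the log2 of the summed CPM of the 13 protein genes, were AA467197 (r = 0.89), Fbln5 (0.88), Ypel5 (0.88), Krt7 (0.85) and Zwint (0.85). Over the 96 short-course libraries the same genes had r = 0.20, -0.13, 0.26, 0.03 and 0.18. The libraries share lines and times, and the values are descriptions.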

How the data were processed

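Poly(A)-selected, unstranded libraries (TruSeq RNA v2) were made from total RNA, per the labels' protocols. The authors deposited expected counts and TPM per gene, made with Salmon 1.5.2 and mm10, per the submitters' processing notes. The unit name TPM comes from the deposited table, whose values are scaled by length. Expected counts were rounded and tested with edgeR 4.0.16 in R 4.3.3 (TMM factors, filterByExpr, robust quasi-likelihood F tests, Benjamini-Hochberg adjustment over all genes that passed the filter, threshold 0.05). The long course had 17565 genes and 20 members tested and the short course 18009 and 21. Each course was fitted over its 4 lines, with 1 coefficient per line and time. Short-course changes with time used a natural spline with 3 df and knots at 110 and 220 min, and their fold change is the mean over the 11 times after 0 min. Fold changes of 4-df tests are those at the time of largest change, and an SE is that fold change over the root of its F. DESeq2 1.42.0 was an alternative. The fits were tested on simulated data. TPM levels are given untransformed, and spreads as log2(TPM + 1). Fold changes come from TMM-scaled counts and can differ in size from ratios of TPM.

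Sequences and coordinates come from GENCODE M21 (mm10), and were read with biopython 1.88. The members and gene lists were chosen with earlier results of these data known. Named with test values are the protein genes that passed (beyond 5, the 4 with the smallest adjusted p and the largest change each way), at most 4 rRNAs and tRNAs, mt-Nd6 and mt-Rnr2 in any case, and at most 4 genes of a nuclear list. Steps between later times, transgene lines over all times and the difference between the controls' changes were added after the values were seen.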

Additional observations from a re-analysis of the deposited data

Results flagged for a closer look

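mt-Co3, a core subunit of complex IV, is given here because its change from 0 min differed between the 2 control lines by a test of that difference. It was the 1 of 13 protein genes that passed, against 18.8% of all genes. The call was lost when any 1 of the replicate numbers was left out. The test covers all later times together, and 720 min is the time of largest difference. At 720 min the change in the KO control minus the change in the WT control was -0.45 ± 0.18 (log2, SE; edgeR F test with 4 df, adjusted p = 0.0224). The WT control had 6151, 6499 and 8000 TPM at 0 min and 9560, 9902 and 10100 TPM at 720 min, with no overlap. The KO control had 9014, 6728 and 8235 TPM and then 7960, 8212 and 9295 TPM, with overlap. mt-Co3 shares 99.9% of its 31-mers with nuclear transcripts, and their part in this difference was not tested.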

How the results depend on the processing

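All 91 calls of single members kept their direction and side of the threshold with RLE factors (another scaling), with scaling from nuclear genes and with no filter on low counts, as did the 90 for which DESeq2 gave an adjusted p. 29 of the 91 were lost, or in 1 case reversed, without 1 of the replicate numbers. Without a filter on low counts far more protein genes passed, although no fold change moved by over 0.0219 (log2), and the cause was not tested. The calls among the 13 then went, in the long course, from 6 to 10 (KO control against WT control at 0 min), 5 to 10 (over all times), 2 to 5 (KO transgene against KO control at 0 min), 1 to 4 (WT transgene against WT control at 0 min), 1 to 9 (change in the KO minus that in the WT control), 0 to 11 (rescue response), 2 to 13 (overexpression response) and 0 to 13 (rescue minus overexpression). In the short course they went from 1 to 2 and 4 to 8 (KO control against WT control at 0 min and over all times), 0 to 4 and 0 to 3 (KO transgene against KO control), 0 to 8 and 3 to 9 (WT transgene against WT control), 4 to 12 and 2 to 8 (change with time in the WT and KO control), 0 to 5 (rescue response), 0 to 10 (overexpression response) and 0 to 13 (rescue minus overexpression). A count of 0 or a low count in the text therefore depends on that filter.

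Fitting only the lines compared gave 1 call in place of 2 (KO transgene against KO control at 0 min, long), 1 in place of 0 (WT transgene against WT control at 0 min, short), 2 in place of 1 (the controls' changes, long), 4 in place of 2 (overexpression response, long) and 1 in place of 2 (change with time in the KO control, short). One coefficient per time in place of the spline gave 0 in place of 4 in the WT control and 1 in place of 2 in the KO control. DESeq2 gave 1 in place of 0 for WT transgene against WT control at 0 min and for rescue minus overexpression, both short. The cause was not tested in any of these.

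Leaving out a replicate number or 1 library changed the calls among the 13 as follows. In the long course they were 3 to 7 for KO control against WT control at 0 min, 0 to 2 for KO transgene against KO control at 0 min, 1 to 5 for WT transgene against WT control over all times, 0 to 1 for the controls' changes and 0 to 2 for the overexpression response. In the short course they were 0 to 4 and 1 for the change with time in the WT and KO control, 0 to 8 for the overexpression response and 0 to 9 for rescue minus overexpression. The change of mt-Rnr1 in the WT control at 1440 min was -0.43 without replicate 3 at that time, and -0.40 to 1.12 without 1 replicate number. Without number 1 or number 2 the short course keeps 1 library a group and the spline fit takes its spread over times, and the comparisons at 0 min and over all times were not refitted.

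Replicate numbers were not taken to pair the samples: deviations of same-numbered libraries correlated with r of -0.11 to 0.13 in the long course (27 of 60 libraries closest to their own number) and -0.10 to 0.17 in the short course (72 of 96, a hint from the data of a shared split, as in the mt-Rnr2 and mt-Nd5 levels of the KO lines). With the replicate number as a block 4 in place of 2 protein genes passed in the overexpression response and 2 in place of 1 in the controls' changes (long), and 1 in place of 0 for WT transgene against WT control at 0 min (short). The block changed 1 other call, mt-Th in the WT control (adjusted p = 0.0543).

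Over all genes the calls moved most in the responses: 1720 for the long overexpression response fell to 297 without replicate 2, 934 for rescue minus overexpression to 233, and 2024 for the rescue response to 742. Rescue minus overexpression in the short course had 3, with 91 by DESeq2, 564 without a filter and 219 without replicate 1. The share of counts at 2880 min over that at 0 min, 1.34 to 1.45 by line, stayed within its spread with TPM, with protein genes only and without each replicate. Adding the counts of the chromosome 1 copies was not run, as those copies are not among the genes analysed here. The 1-library omissions and the counts by shared 31-mers were chosen after seeing the data. Of the 6 protein genes with under 20% shared 31-mers 6 passed in each control's change from 0 min and 4 in KO control against WT control at 0 min (long). At 21 to 313 tRNA counts a library, depth limits all tRNA values.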
